A study of Homo sapiens with 45 samples.

Results

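Potassium channel genes encode the pore-forming and accessory proteins through which potassium ions cross cell membranes. Here they were described in breast cancer cells given estradiol (E2, the main natural estrogen) with or without depletion of the estrogen receptor, FOXA1 or MDC1. The genes were taken by symbol: rows of the count table named KCN, then letters, then a number. Among 57353 rows, 95 matched, and 22 further rows beginning with KCN had longer or antisense names and were not included. The 44 genes with a mean of at least 1 CPM (counts scaled to a library of equal size) in at least one of the 15 groups are described. The other 51 stayed under that level in every group, and 5 of those had no count in any library. The genes nearest the threshold, by their highest group mean, were KCNU1 (1.54 CPM), KCNH6 (1.37 CPM) and KCNK9 (1.24 CPM) inside it, and KCNN2 (0.934 CPM), KCNH4 (0.888 CPM) and KCNMB1 (0.857 CPM) outside it. A gene could pass because it was high in a single group, so the counts of changed members given here describe these genes and are not a test of the family.

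Polyadenylated RNA came from 3 estrogen receptor-positive lines. Of these, MM134 is MDA-MB-134-VI and MM330 is MDA-MB-330, both from invasive lobular carcinomas, and HCC1428 came from an invasive ductal carcinoma. A single line stands for ductal disease, and each line is one cell line, so the line and the tumour type it came from cannot be told apart. All cells were first kept for 3 days in medium whose serum had been stripped of hormones with charcoal. They then received a small interfering RNA (siRNA) and, 24 h later, vehicle or E2 for a further 24 h. Each line had 5 groups of 3 libraries. They were siNT (non-targeting siRNA with vehicle, 0.01% ethanol), siNT_E2 (the same siRNA with 100 pM E2), and siER_E2, siFOXA1_E2 and siMDC1_E2 (siRNA against ESR1, FOXA1 or MDC1, each with 100 pM E2). Whether the 3 libraries of each group are separate cultures is not in the labels, so p-values measure the spread between these libraries, which may be technical.

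Potassium channels set the resting membrane potential and return an excited membrane to rest, and in epithelia such as the breast they also support fluid secretion, cell volume control and the driving force for calcium entry. The family falls into classes by how the pore opens. Voltage-gated channels open on depolarisation, modifier subunits form no current alone but alter voltage-gated partners, calcium-activated channels couple calcium to potassium exit, inward rectifiers pass current best into the cell, and two-pore-domain channels carry the background leak. Auxiliary subunits change the gating or the surface delivery of pores. The estrogen receptor is a hormone-activated transcription factor, FOXA1 is a forkhead factor that opens chromatin for it, and MDC1 is a scaffold protein of the DNA damage response.

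The sequences just upstream of the RefSeq start of 3 members are shown because these members moved the same way with E2 in all 3 lines. KCNMA1 also did, but it has 2 windows in the table, 1 of them with a half-site at base 209, and is not printed. KCNJ13 fell, and KCNK5 and KCNQ5 rose. Each is the 250 bases before the annotated start in the RefSeq promoter table (GRCh38.p14), written 5′ to 3′ on the gene's strand. Capitals mark a half-site of the estrogen response element, GGTCA or its reverse complement TGACC. The windows lie at chr2:232776566-232776815 (minus strand), chr6:39229476-39229725 (minus strand) and chr6:72621814-72622063 (plus strand).
KCNJ13: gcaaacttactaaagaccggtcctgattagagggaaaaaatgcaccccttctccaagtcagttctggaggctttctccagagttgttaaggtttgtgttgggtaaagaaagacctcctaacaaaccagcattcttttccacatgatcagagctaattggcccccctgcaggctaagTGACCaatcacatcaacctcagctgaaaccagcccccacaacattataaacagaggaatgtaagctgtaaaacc
KCNK5: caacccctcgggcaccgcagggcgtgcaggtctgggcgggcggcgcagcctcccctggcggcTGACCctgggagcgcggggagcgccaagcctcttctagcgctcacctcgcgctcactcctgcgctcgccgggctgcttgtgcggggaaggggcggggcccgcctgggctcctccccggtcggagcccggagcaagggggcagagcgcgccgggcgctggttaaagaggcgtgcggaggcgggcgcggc
KCNQ5: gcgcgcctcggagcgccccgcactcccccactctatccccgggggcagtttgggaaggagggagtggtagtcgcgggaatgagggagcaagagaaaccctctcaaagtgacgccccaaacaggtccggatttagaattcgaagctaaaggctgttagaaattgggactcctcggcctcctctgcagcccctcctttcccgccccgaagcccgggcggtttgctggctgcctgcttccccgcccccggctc
The searched windows reached 50 bases past the start, 300 bases in all, and 44 windows of 28 of the described genes were in the table. The half-site, read on both strands, was in 10 of those 44 windows, against 37.4% of all 35116 windows of the same length. It begins at base 177 of the KCNJ13 sequence and at base 63 of the KCNK5 sequence, and it is absent from the KCNQ5 sequence. The full element GGTCANNNTGACC, which contains the half-site, was in none of the 44 windows and in 0.057% of all windows. The forkhead motif TGTTTAC was in 1 of them, the window of KCNMB3, and in 3.42% of all windows. A match is a description of the letters only, and a missing match says only that these letters are not in this window.

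Libraries held 21.0 to 36.7 M counts. The siRNA targets were lower in the knockdown groups of every line. ESR1 averaged 532 CPM in siNT_E2 and 60.2 CPM in siER_E2 of MM134, 284 and 22.2 CPM in MM330, and 426 and 217 CPM in HCC1428. FOXA1 averaged 437 CPM in siNT_E2 and 111 CPM in siFOXA1_E2 of MM134, 500.5 and 138 CPM in MM330, and 279 and 91.4 CPM in HCC1428. MDC1 averaged 173 CPM in siNT_E2 and 40.0 CPM in siMDC1_E2 of MM134, 201 and 41.2 CPM in MM330, and 173 and 45.5 CPM in HCC1428. ESR1 itself averaged 108 CPM in siFOXA1_E2 and 120.4 CPM in siMDC1_E2 of MM134, 207 and 147 CPM in MM330, and 391 and 394 CPM in HCC1428. Its part in the results for those groups was not tested. The luminal keratin KRT8 was at 1616 CPM or more and EPCAM at 123 CPM or more in every library. Markers of other cell types were mixed. Of 5 fibroblast markers COL1A1 was at 20.6 to 117 CPM and the other 4 (COL1A2, COL3A1, DCN and LUM) at no more than 0.74 CPM. The immune markers PTPRC, CD3E, LYZ and CD14 were at no more than 0.841 CPM. Of 3 endothelial markers VWF was at 0.0261 to 11.1 CPM, PECAM1 at no more than 0.221 CPM and CDH5 at 0. The neural genes SYT1 and SNAP25 reached 57.6 and 12.4 CPM, while RBFOX3 and STMN2 reached at most 0.330 and 0.141 CPM. The muscle genes TNNT2 and ACTN2 reached 18.7 and 15.8 CPM, while MYH7 and CKM reached at most 0.0693 and 0.420 CPM. Whether other cell types took part in the results was not tested. In 11 libraries, 2 of MM134, 4 of MM330 and 5 of HCC1428, 0.337 to 0.494% of counts lay on processed pseudogenes, against 0.123 to 0.158% in the other 34. In bulk RNA, fewer cells with a transcript and less transcript per cell cannot be told apart.

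HCC1428 carried the most potassium channel RNA and MM330 the least. In siNT, the 44 genes summed to 389 ± 3.11 CPM in MM134, 171 ± 5.06 CPM in MM330 and 997 ± 16.0 CPM in HCC1428 (SD, n = 3). At least 1 CPM was reached in siNT by 32 genes in MM134, 19 in MM330 and 31 in HCC1428. Of the 44 genes 18 reached it in all 3 lines, 7 in 2 lines, 14 in 1 line and 5 in none of the siNT groups. By class, 17 of the 30 voltage-gated rows were described, 9 of 15 two-pore-domain, 5 of 16 inward rectifier, 6 of 16 auxiliary, 4 of 8 calcium- or sodium-activated and 3 of 10 modifier rows. Classes were assigned by symbol. The calcium- or sodium-activated class took all KCNMA, KCNN, KCNT and KCNU symbols, without regard to how each pore opens.

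Levels of different genes were compared as CPM per kb of merged exon length (GENCODE release 29, GRCh38). Among the highest in siNT of HCC1428 were, in order, KCNK5 (32.1 CPM per kb), a leak channel sensitive to pH and cell volume, KCNK1 (17.6), KCNK12 (12.2) and KCNMA1 (7.09), the large-conductance calcium-activated pore. None of these overlapped its neighbour in any library. The order depends on the merged length, which joins the exons of all annotated transcripts, 35.6 kb for KCNMA1 and 3.76 kb for KCNK5. In CPM, without that division, KCNMA1 (253) stood above KCNK5 (121) there. In MM134 KCNJ11, the pore of the ATP-sensitive potassium channel, led at 15.9 CPM per kb, followed by KCNK1 (6.74). KCNH2 (3.96), the hERG channel of cardiac repolarisation, and KCNK6 (3.91) came next and overlapped each other, and KCNC1 (3.08) followed. In MM330 KCNK1 (7.96 CPM per kb) and KCNJ11 (7.88) were among the highest and overlapped each other, and KCNS3 (2.96) stood below them. KCNJ13 (4.36) and KCNG1 (3.92) of HCC1428, an inward rectifier and a modifier subunit, were also among the 10 highest members by the level per kb in any line. The map of group means includes the siNT levels of 40 of the 44 genes.

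**Figure D1:**
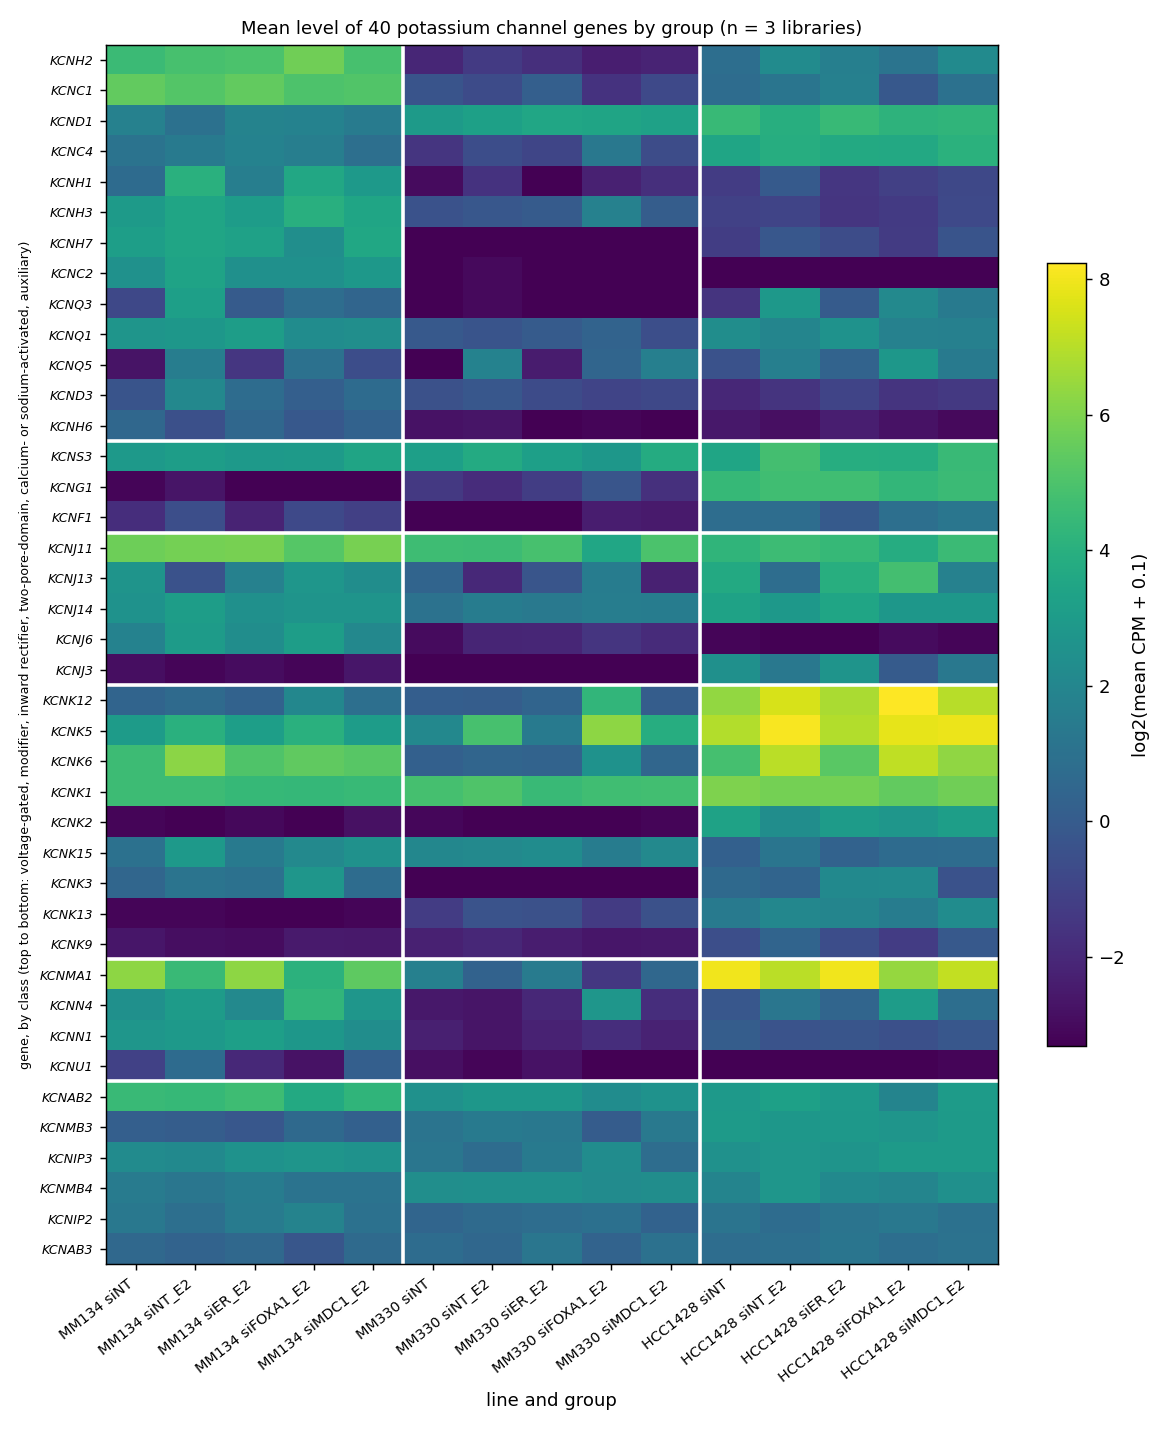
Mean level of 40 of the 44 potassium channel genes in all 15 groups, as the log2 of CPM plus a small constant, with genes in rows grouped by class and groups in columns grouped by line. HCC1428 has the highest levels of KCNK5, KCNK12 and KCNMA1, and the darkest (lowest) cells are most frequent in MM330.

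In siNT the lines differed at most of these genes, as they did at most genes. Adjusted p-values throughout are from edgeR's quasi-likelihood test with Benjamini-Hochberg adjustment over all genes tested, and a gene is called at an adjusted p below 0.05. Between MM134 and HCC1428, 36 of 44 were called, 15 higher and 21 lower in MM134, against 75.6% of all genes tested (35.7% higher, 39.9% lower). MM330 against HCC1428 gave 37 of 44, 4 higher and 33 lower, against 73.0% of all genes tested (35.2% higher, 37.7% lower). MM134 against MM330 gave 36 of 44, 26 higher and 10 lower, against 72.4% of all genes tested (35.5% higher, 36.9% lower). KCNK12, a subunit that gives no measurable current alone in expression studies, averaged 1.21, 1.01 and 81.9 CPM in MM134, MM330 and HCC1428. Its log2 difference from HCC1428 was -6.08 (SE 0.10, adjusted p = 2.5e-38) in MM134 and -6.32 (SE 0.10, adjusted p = 3.7e-38) in MM330. KCNH2 averaged 23.3 CPM in MM134 and 1.71 CPM in HCC1428, a log2 difference of 3.77 (SE 0.16, adjusted p = 1.2e-23).

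A few members were expressed in siNT of a single line, with at least 1 CPM there and under 0.1 CPM in both others. In MM134 these were KCNC2 (5.68 CPM), a fast voltage-gated channel, KCNJ6 (3.45 CPM), a G-protein-gated inward rectifier, and KCNH6 (1.37 CPM), a relative of KCNH2. In HCC1428 they included KCNK2 (9.95 CPM), a mechanically gated leak channel, and KCNJ3 (5.47 CPM), a G-protein-gated inward rectifier. MM330 had none. A close copy could take reads from KCNE1 (131 counts in all libraries, 23 on KCNE1B) and from KCNJ12 (187 counts, 5 on KCNJ18), and neither gene is among the 44.

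E2 called a larger share of these genes in MM134 and HCC1428 than in MM330, as it did of all genes tested. In MM134 24 of 37 tested members were called, 18 higher and 6 lower, against 54.4% of all genes tested (27.2% higher, 27.2% lower). In MM330 6 of 29 tested members were called, 4 higher and 2 lower, against 26.3% of all genes tested (13.7% higher, 12.6% lower). In HCC1428 27 of 39 tested members were called, 18 higher and 9 lower, against 54.8% of all genes tested (29.1% higher, 25.7% lower). Changes of at least 2-fold were seen in 9 higher and 3 lower members in MM134, 2 and 2 in MM330, and 12 and 3 in HCC1428. The share of all genes changed by at least 2-fold was not counted, here or for the depletions given next. The 2-fold counts therefore describe these members only. The median log2 fold change of the tested members was 0.29, 0.13 and 0.29 in MM134, MM330 and HCC1428, beside -0.03, 0.00 and -0.03 over all genes tested.

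Depletion of the receptor under E2 called 29, 9 and 26 members. In MM134 29 of 37 tested members were called, 15 higher and 14 lower, against 57.2% of all genes tested (29.3% higher, 27.9% lower). For MM330 9 of 29 tested members were called, 5 higher and 4 lower, against 32.5% of all genes tested (15.1% higher, 17.4% lower). For HCC1428 26 of 39 tested members were called, 10 higher and 16 lower, against 51.2% of all genes tested (22.5% higher, 28.7% lower). At least 2-fold changes were 3 higher and 8 lower in MM134, 2 and 2 in MM330, and 4 and 6 in HCC1428. The E2 comparison and the 3 knockdown comparisons of a line share the siNT_E2 libraries, so an unusual siNT_E2 value would move all 4, and their values are given side by side without any measure of agreement.

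FOXA1 depletion was the comparison with the most members called in MM330. In MM330 20 of 29 tested members were called, 11 higher and 9 lower, against 49.0% of all genes tested (24.4% higher, 24.6% lower). Of these, 10 rose and 5 fell by at least 2-fold, and the median size of the log2 fold change over the tested members was 1.22, beside 0.35 over all genes. The first siFOXA1_E2 library of MM330 was lower than the other 2 for several members, and the summed level of that group was 334 ± 48.5 CPM (SD, n = 3). Without that library 19 members were called, 11 higher and 8 lower. In MM134 25 of 37 tested members were called, 10 higher and 15 lower, against 56.3% of all genes tested (27.9% higher, 28.5% lower). In HCC1428 27 of 39 tested members were called, 9 higher and 18 lower, against 53.6% of all genes tested (24.1% higher, 29.5% lower). The median size was 0.61 in MM134 and 0.54 in HCC1428, beside 0.33 and 0.34 over all genes.

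With MDC1 depletion under E2, in MM134 22 of 37 tested members were called, 7 higher and 15 lower, against 50.3% of all genes tested (25.4% higher, 25.0% lower). For MM330 the numbers were smaller: 3 of 29 tested members were called, 1 higher and 2 lower, against 20.8% of all genes tested (10.4% higher, 10.4% lower). For HCC1428 12 of 39 tested members were called, 6 higher and 6 lower, against 29.1% of all genes tested (13.2% higher, 15.9% lower). In all 1 member rose and 4 fell by at least 2-fold in MM134, and in each of the other lines 1 fell and none rose by that much. Every one of the 44 genes was called in at least 1 of the 12 comparisons within lines, 18 were called in at least 6, and KCNJ13, KCNK5 and KCNMA1 were called in 11. The same counts were not made over all genes, so these numbers do not set the family apart. In a single comparison 20.8 to 57.2% of all genes tested were called. Of 420 tests 230 gave a call, and 176 of those 230 kept it under every alternative tried. None changed sign, and 50 were lost when some single library was left out.

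**Figure D2:**
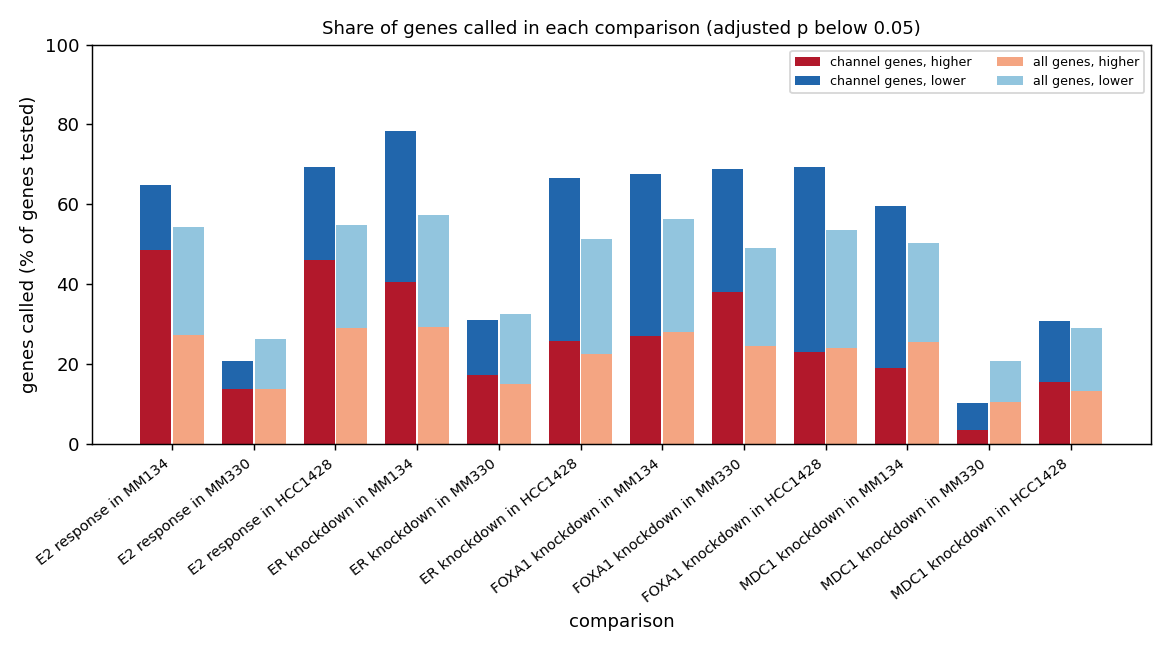
Share of the tested potassium channel genes (dark bars, percent, stacked) called higher (red) or lower (blue) in each of the 12 comparisons within lines, beside the share of all genes tested that were called (pale bars). The highest share of members is 29 of 37 for ER knockdown in MM134, and the lowest is 3 of 29 for MDC1 knockdown in MM330.

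**Figure D3:**
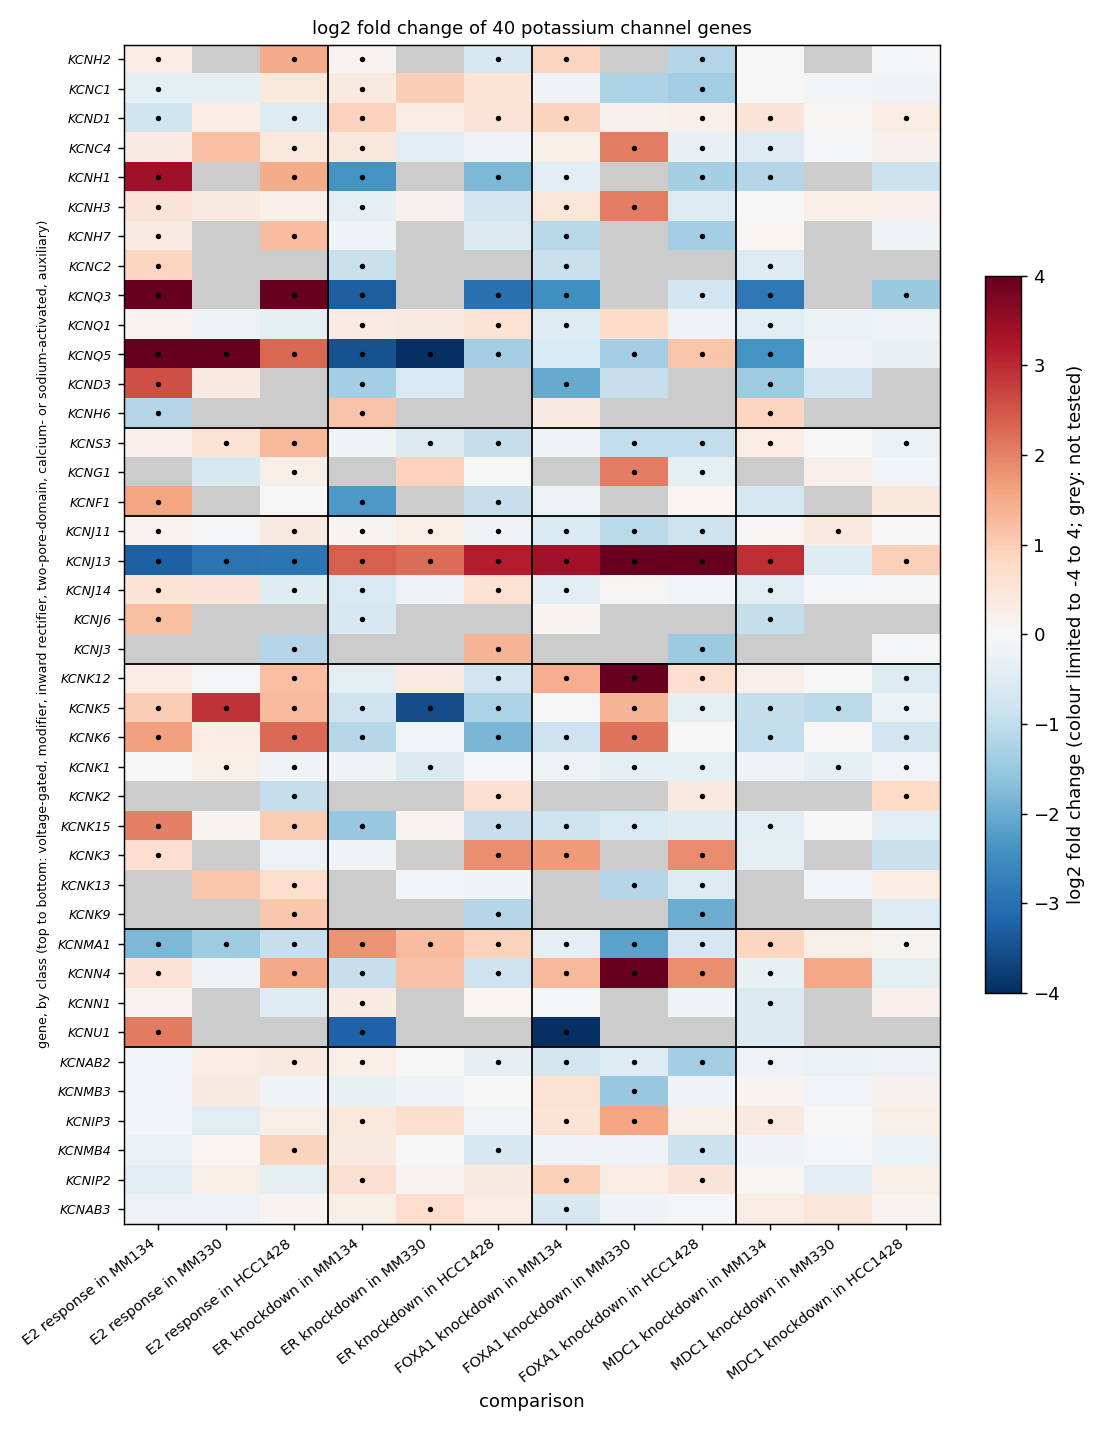
Log2 fold change of 40 of the 44 genes (rows, grouped by class) in the 12 comparisons within lines (columns), with a dot for each call at an adjusted p below 0.05 and grey for genes not tested. KCNJ13 and KCNMA1 are lower with E2 in all 3 lines, and KCNK5 and KCNQ5 are higher.

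Among the voltage-gated genes, E2 called 12 of 15 tested in MM134 (8 higher, 4 lower), 1 of 10 in MM330 (higher) and 9 of 14 in HCC1428 (6 higher, 3 lower), beside 54.4, 26.3 and 54.8% of all genes tested. In MM134 the largest rises were those of KCNQ5 and KCNQ3, subunits of the slow M-type current that restrains repetitive firing, and KCNH1, the ether-a-go-go channel often found in tumours. KCNQ3 lies at chr8:132120858-132481019 and KCNQ5 at chr6:72621792-73198851. KCNQ3 in MM134 was at 0.88, 0.261 and 0.249 CPM in siNT, 10.1, 8.98 and 8.75 in siNT_E2, 0.965, 0.661 and 1.1 in siER_E2, 1.66, 1.82 and 1.52 in siFOXA1_E2 and 1.99, 0.903 and 0.929 in siMDC1_E2. In HCC1428 KCNQ3 was at 0.0693, 0.11 and 0.528 CPM in siNT, 6.38, 7.63 and 7.31 in siNT_E2, 0.968, 0.591 and 1.18 in siER_E2, 3.87, 4.27 and 4.74 in siFOXA1_E2 and 2.33, 2.08 and 3.25 in siMDC1_E2. In both lines every siNT_E2 library was above every library of the other 4 groups, and in MM330 the gene had no count outside 1 siNT_E2 library. The log2 fold change of KCNQ3 with E2 was 4.33 (SE 0.34, adjusted p = 3.0e-10) in MM134 and 4.90 (SE 0.38, adjusted p = 1.7e-09) in HCC1428. Depletion under E2 lowered it in MM134 with log2 fold changes of -3.31 ± 0.30 (ER), -2.46 ± 0.28 (FOXA1) and -2.87 ± 0.29 (MDC1), with the SE. In HCC1428 the values were -2.97 ± 0.31 (ER), -0.76 ± 0.27 (FOXA1) and -1.49 ± 0.28 (MDC1). The FOXA1 call in HCC1428 (adjusted p = 0.023) was lost without siFOXA1_E2 replicate 1 or 2, or without siNT_E2 replicate 3 or 4, at adjusted p up to 0.088. The E2 value of KCNQ3 was 5.15 without siNT replicate 1 in MM134 and 6.26 without siNT replicate 3 in HCC1428.

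KCNQ5 was close to 0 without E2 in both lobular lines. KCNQ5 in MM134 was at 0.135, 0.0261 and 0 CPM in siNT, 3.06, 3.01 and 2.68 in siNT_E2, 0.211, 0.383 and 0.174 in siER_E2, 1.52, 1.97 and 2.18 in siFOXA1_E2 and 0.546, 0.677 and 0.448 in siMDC1_E2. In MM330 KCNQ5 was at 0, 0 and 0 CPM in siNT, 3.74, 3.33 and 3.05 in siNT_E2, 0.0368, 0 and 0.222 in siER_E2, 0.233, 1.94 and 1.67 in siFOXA1_E2 and 2.45, 3.99 and 2.75 in siMDC1_E2. In HCC1428 KCNQ5 was at 0.589, 0.957 and 0.387 CPM in siNT, 3.46, 2.78 and 3.1 in siNT_E2, 0.865, 1.33 and 1.41 in siER_E2, 7.12, 7.75 and 5.65 in siFOXA1_E2 and 3.32, 2.15 and 2.22 in siMDC1_E2. In each line all siNT_E2 libraries stood above all siNT libraries, and in HCC1428 the siFOXA1_E2 libraries were the highest. In MM330 the 3 siNT libraries held 0 counts against 290 with E2, which is at least 97.2-fold higher against a floor of 3 counts over the group (adjusted p = 1.9e-05). The E2 response was 5.69 (SE 0.44, adjusted p = 2.8e-10) in MM134, or 7.27 without siNT replicate 1, and 2.29 (SE 0.27, adjusted p = 7.9e-07) in HCC1428. ER depletion lowered KCNQ5, with log2 fold changes of -3.50 ± 0.34 in MM134, -5.16 ± 0.74 in MM330 and -1.41 ± 0.25 in HCC1428 (± SE), and the MM330 value was -7.26 without siER_E2 replicate 3. FOXA1 depletion raised it in HCC1428, with 1.10 (SE 0.23, adjusted p = 4.5e-04). In MM330 the FOXA1 value was -1.40 (SE 0.55, adjusted p = 0.049), with siFOXA1_E2 replicate 1 far below the other 2, and without that library it was -0.94 (adjusted p = 0.085). That call was also lost without siFOXA1_E2 replicate 3 or any one siNT_E2 library, at adjusted p up to 0.10. The difference between MM330 and HCC1428 in the FOXA1 response was -2.50 (SE 0.54, adjusted p = 4.9e-04). MDC1 depletion lowered KCNQ5 in MM134, with a log2 fold change of -2.40 ± 0.31, and gave -0.15 ± 0.53 in MM330 and -0.29 ± 0.23 in HCC1428, neither called.

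**Figure D4:**
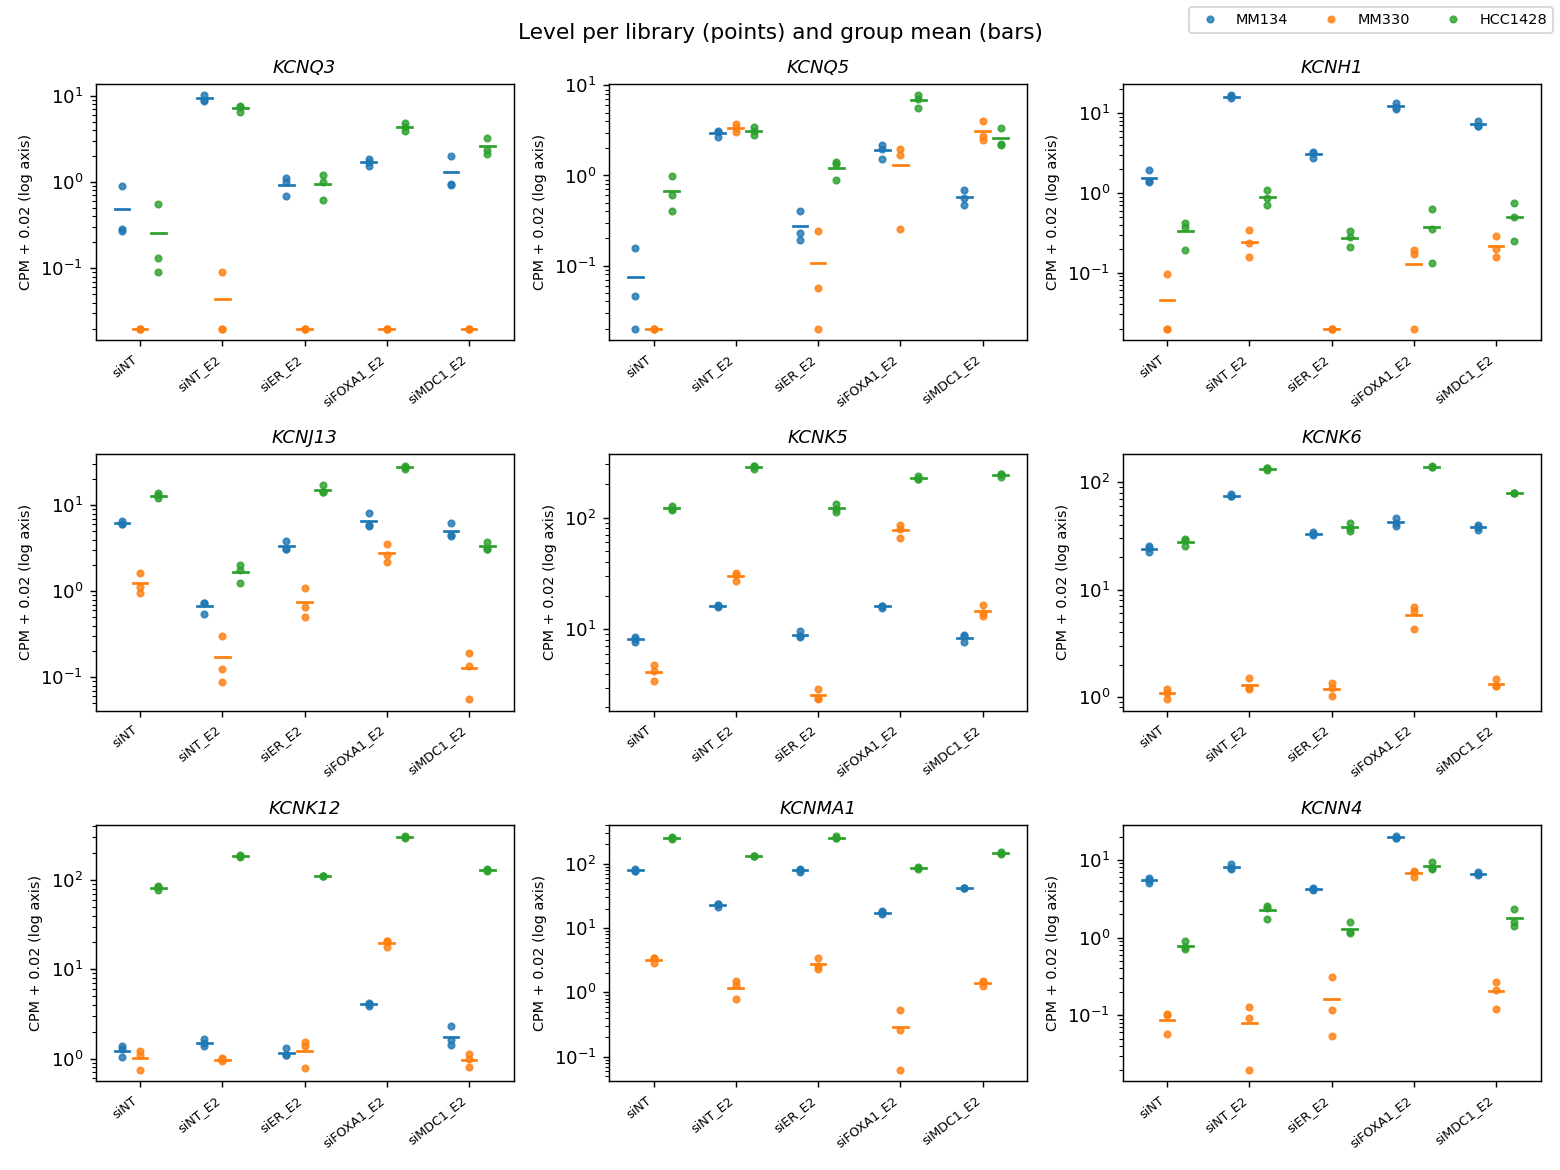
Level in CPM (log axis, with a small constant added so that 0 can be drawn) of the potassium channel genes named most often, one point per library, a short bar at each group mean and one colour per line, over the 5 groups siNT, siNT_E2, siER_E2, siFOXA1_E2 and siMDC1_E2. KCNQ5 stands apart in siNT_E2 from siNT in each line, and KCNQ3 does in MM134 and HCC1428. KCNJ13 is lowest in siNT_E2 of MM134 and HCC1428.

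KCNH1 was mainly expressed in MM134. KCND3, which carries a transient outward current, averaged 0.693 CPM in siNT of MM134 and 0.626 CPM in siNT of MM330. In siNT_E2 it averaged 4.13 and 0.789 CPM, and its E2 response in MM330, 0.36 ± 0.39 (SE), was not called. KCNH1 in MM134 was at 1.9, 1.33 and 1.39 CPM in siNT, 16.7, 15.2 and 16.4 in siNT_E2, 3.23, 2.71 and 3.11 in siER_E2, 11.2, 13.2 and 11.9 in siFOXA1_E2 and 6.81, 6.9 and 7.98 in siMDC1_E2. KCND3 in MM134 was at 1.02, 0.496 and 0.569 CPM in siNT, 4.51, 3.47 and 4.39 in siNT_E2, 1.39, 1.7 and 1.66 in siER_E2, 1.17, 0.80 and 1.09 in siFOXA1_E2 and 2.06, 1.32 and 1.31 in siMDC1_E2. Neither gene's siNT_E2 libraries overlapped those of any other group. The E2 response in MM134 was 3.39 (SE 0.13, adjusted p = 1.0e-15) for KCNH1 and 2.57 (SE 0.26, adjusted p = 1.8e-08) for KCND3. With depletion of ER, FOXA1 and MDC1 in MM134, KCNH1 had log2 fold changes of -2.39 ± 0.11, -0.41 ± 0.10 and -1.17 ± 0.10, and KCND3 of -1.36 ± 0.23, -2.00 ± 0.24 and -1.41 ± 0.23 (± SE), all called as lower. Over 36.9% of its exon bases KCNH1 is overlapped by an antisense gene, AC096636.1, and over 16.1% by AC092017.3 and AL590132.1 on its own strand. The strand setting of the counting is not given in the sources used here. In MM134 the group means were 0.257 to 0.424 CPM for AC096636.1, at most 0.12 CPM for AL590132.1 and 0 for AC092017.3. Their part in the KCNH1 values was not tested. In HCC1428 KCNH1 was near the detection limit, with mean levels of 0.31 CPM in siNT and 0.861 CPM in siNT_E2, and its E2 call there was lost without siNT replicate 1 or siNT_E2 replicate 4 (adjusted p up to 0.078).

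KCNH2 moved in opposite directions with FOXA1 depletion in the 2 lines with the higher levels. KCNH2 in MM134 was at 23.3, 23.6 and 22.9 CPM in siNT, 29.7, 29.2 and 27.9 in siNT_E2, 33.6, 30.5 and 29.8 in siER_E2, 49.3, 54.7 and 54.2 in siFOXA1_E2 and 28.5, 30.2 and 28.8 in siMDC1_E2. In HCC1428 KCNH2 was at 2.11, 1.91 and 1.09 CPM in siNT, 5.05, 4.28 and 4.71 in siNT_E2, 2.59, 2.77 and 3.87 in siER_E2, 2.03, 1.37 and 2.97 in siFOXA1_E2 and 5.0, 3.95 and 4.7 in siMDC1_E2. The siFOXA1_E2 libraries were the highest of the 15 in MM134, while in HCC1428 they lay below all siNT_E2 libraries. The FOXA1 response was 0.87 (SE 0.05, adjusted p = 6.7e-13) in MM134 and -1.18 (SE 0.25, adjusted p = 5.2e-04) in HCC1428, and the difference between the lines was 2.02 (SE 0.21, adjusted p = 2.9e-10). E2 raised KCNH2 by 0.31 ± 0.05 in MM134 and 1.47 ± 0.25 in HCC1428. The ER responses were small, 0.13 ± 0.05 and -0.63 ± 0.24. The call was lost in MM134 without siER_E2 replicate 1 or siNT_E2 replicate 3, and in HCC1428 without siER_E2 replicate 1 or 2 or any one siNT_E2 library, at adjusted p up to 0.20 and 0.11.

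Other voltage-gated genes followed their own patterns. KCND1, a transient outward channel, fell with E2 in MM134 and HCC1428, with log2 fold changes of -0.81 ± 0.18 and -0.53 ± 0.07. KCNC2 in MM134 rose with E2 from 5.68 ± 0.837 to 10.4 ± 0.494 CPM and fell to 5.56, 5.55 and 7.17 CPM with depletion of ER, FOXA1 and MDC1 (SD, n = 3). An antisense gene, AC073525.1, overlaps 35.5% of the exon bases of KCNC2. AC073525.1 averaged at most 0.0352 CPM in any group. KCNC1, a relative of KCNC2, stood in MM134 at 44.4 CPM in siNT, and fell with E2 (log2 fold change -0.35 ± 0.06). KCNH6 in MM134 fell with E2 from 1.37 to 0.62 CPM, 133 and 59 counts over the group. With FOXA1 depletion in MM330, KCNC4 rose from 0.571 to 2.37 CPM and KCNH3 from 0.795 to 3.28 CPM. KCNH7, another relative of KCNH2, fell with FOXA1 depletion in MM134 from 11.1 to 5.14 CPM (-1.11 ± 0.11). KCNC1 fell with it in HCC1428 (-1.40 ± 0.27).

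Of the 3 modifier genes, KCNS3, which changes the gating of voltage-gated partners, rose with E2 in MM330 and HCC1428. KCNS3 in HCC1428 was at 11.3, 9.9 and 12.1 CPM in siNT, 25.7, 27.8 and 28.7 in siNT_E2, 15.6, 14.4 and 13.5 in siER_E2, 14.3, 13.8 and 14.7 in siFOXA1_E2 and 23.3, 22.7 and 22.9 in siMDC1_E2. In MM330 KCNS3 was at 9.61, 9.2 and 8.98 CPM in siNT, 13.7, 12.9 and 14.1 in siNT_E2, 9.95, 7.91 and 9.58 in siER_E2, 5.93, 6.98 and 7.72 in siFOXA1_E2 and 14.3, 14.0 and 13.4 in siMDC1_E2. In both lines the siNT_E2 libraries lay above all siNT, siER_E2 and siFOXA1_E2 libraries. The E2 response of KCNS3 was 1.32 (SE 0.07, adjusted p = 2.0e-11) in HCC1428 and 0.57 (SE 0.10, adjusted p = 3.6e-04) in MM330, and FOXA1 depletion gave -0.98 ± 0.07 and -0.98 ± 0.10. MDC1 depletion raised it in MM134, by 0.29 (SE 0.09, adjusted p = 0.0100), and lowered it in HCC1428, with -0.26 (SE 0.07, adjusted p = 0.0088). KCNG1 was mostly an HCC1428 transcript, with means of 20.2 to 26.1 CPM over the groups. KCNF1 reached 1.68 CPM in siNT of HCC1428, and 0.881 CPM with ER depletion, a log2 fold change of -0.92 (SE 0.26, adjusted p = 0.0057) that was lost in the libraries with fewer pseudogene counts (adjusted p = 0.11).

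Among the 6 auxiliary genes, none was called with E2 in MM134 or MM330 and 2 of 6 were called in HCC1428, beside 54.4, 26.3 and 54.8% of all genes tested. The 2 were KCNAB2 (0.36 ± 0.11) and KCNMB4 (0.89 ± 0.19), both higher. KCNMB4 is a subunit of the KCNMA1 channel, and it rose from 3.64 ± 0.948 to 6.71 ± 0.419 CPM (SD, n = 3). KCNAB2, a beta subunit related to aldo-keto reductases, fell with FOXA1 depletion in all 3 lines. It averaged 21.6 CPM in siNT_E2 and 12.9 CPM in siFOXA1_E2 of MM134, 6.98 and 4.88 CPM in MM330, and 9.34 and 3.62 CPM in HCC1428. The log2 fold changes were -0.73 (SE 0.06, adjusted p = 2.0e-10), -0.51 (SE 0.16, adjusted p = 0.013) and -1.40 (SE 0.11, adjusted p = 4.5e-09), and the MM330 call was lost without siFOXA1_E2 replicate 2 or siNT_E2 replicate 2 (adjusted p up to 0.078). The KCNAB2 call with E2 in HCC1428 was lost without siNT_E2 replicate 3 or 4 (adjusted p up to 0.077). KCNMB3, another beta subunit, fell with FOXA1 depletion in MM330 from 2.66 to 0.932 CPM (-1.52 ± 0.29), and 37.9% of its exon bases are overlapped on the other strand by PIK3CA. KCNIP3, a calcium-binding partner of transient outward channels, rose there from 1.61 to 4.79 CPM (1.56 ± 0.28).

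KCNMA1, the large-conductance calcium-activated channel (chr10:76869601-77638369, minus strand), fell with E2 in all 3 lines. KCNMA1 in MM134 was at 77.3, 81.5 and 76.9 CPM in siNT, 23.9, 21.0 and 23.5 in siNT_E2, 82.2, 75.0 and 78.5 in siER_E2, 16.3, 17.7 and 18.1 in siFOXA1_E2 and 41.2, 42.0 and 41.2 in siMDC1_E2. In HCC1428 KCNMA1 was at 255, 245 and 259 CPM in siNT, 133, 132 and 132 in siNT_E2, 267, 251 and 247 in siER_E2, 85.1, 82.4 and 88.4 in siFOXA1_E2 and 151, 143 and 144 in siMDC1_E2. In MM330 KCNMA1 was at 3.37, 3.34 and 2.82 CPM in siNT, 1.26, 1.45 and 0.781 in siNT_E2, 2.54, 2.28 and 3.36 in siER_E2, 0.514, 0.0431 and 0.242 in siFOXA1_E2 and 1.48, 1.44 and 1.22 in siMDC1_E2. In MM134 and HCC1428 the siFOXA1_E2 libraries were the lowest, siNT_E2 came next and siMDC1_E2 after it, and siNT and siER_E2 overlapped at the top. The E2 response was -1.80 (SE 0.05, adjusted p = 2.5e-18) in MM134, -1.43 (SE 0.37, adjusted p = 0.0080) in MM330 and -0.92 (SE 0.04, adjusted p = 1.1e-13) in HCC1428. ER depletion raised KCNMA1 by 1.81 ± 0.05, 1.23 ± 0.37 and 0.92 ± 0.04 in the same order (log2, SE). FOXA1 depletion lowered it further, with log2 fold changes of -0.39 ± 0.05, -2.14 ± 0.45 and -0.67 ± 0.04. The MM330 values rest on few counts. There the ER call was lost without siER_E2 replicate 3 or siNT_E2 replicate 3 (adjusted p up to 0.082), and the FOXA1 value was -2.90 without siFOXA1_E2 replicate 1. MDC1 depletion raised KCNMA1 by 0.85 ± 0.05 in MM134 and 0.14 ± 0.04 in HCC1428, the latter lost without siMDC1_E2 replicate 1 (adjusted p = 0.057).

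KCNN4, the intermediate-conductance calcium-activated channel of secretory epithelia and immune cells, rose with FOXA1 depletion in all 3 lines. KCNN4 in MM134 was at 5.48, 5.01 and 5.87 CPM in siNT, 7.76, 8.72 and 7.71 in siNT_E2, 4.37, 4.21 and 4.09 in siER_E2, 19.3, 20.1 and 19.4 in siFOXA1_E2 and 6.97, 6.48 and 6.44 in siMDC1_E2. In MM330 KCNN4 was at 0.0378, 0.0849 and 0.0816 CPM in siNT, 0, 0.106 and 0.071 in siNT_E2, 0.295, 0.0346 and 0.0951 in siER_E2, 6.07, 7.02 and 7.08 in siFOXA1_E2 and 0.194, 0.251 and 0.102 in siMDC1_E2. In HCC1428 KCNN4 was at 0.693, 0.736 and 0.881 CPM in siNT, 2.41, 2.56 and 1.7 in siNT_E2, 1.18, 1.55 and 1.12 in siER_E2, 9.37, 7.52 and 7.75 in siFOXA1_E2 and 2.29, 1.56 and 1.38 in siMDC1_E2. The siFOXA1_E2 libraries were the highest of each line and overlapped no other group. The log2 fold changes were 1.29 (SE 0.08, adjusted p = 1.1e-11), 6.74 (SE 0.57, adjusted p = 4.7e-08) and 1.86 (SE 0.20, adjusted p = 2.1e-07). In MM330 the rise was from 5 to 527 counts over the group, and without siNT_E2 replicate 2 the value was 7.41. E2 raised KCNN4 by 0.56 ± 0.09 in MM134 and 1.53 ± 0.23 in HCC1428, and ER depletion lowered it, with log2 fold changes of -0.91 ± 0.09 and -0.82 ± 0.22. KCNU1, a relative of KCNMA1 best known from sperm, reached 1 CPM only in MM134. It was at 0.508, 0.13 and 0.462 CPM in siNT, 1.32, 1.33 and 1.97 in siNT_E2, 0.0603, 0.139 and 0.261 in siER_E2 and 0.0584, 0.0616 and 0.0287 in siFOXA1_E2. It is described because its level passed the threshold in siNT_E2 and siMDC1_E2, so its difference from siNT_E2 is given without a test. The siNT_E2 libraries held 144 counts over the group and the siFOXA1_E2 libraries 5.

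KCNJ13, an inward rectifier of transporting epithelia with unusually weak rectification, had the largest fall with E2 of the 44 genes in each line. It lies at chr2:232766464-232776568 on the minus strand. KCNJ13 in MM134 was at 6.06, 6.49 and 6.04 CPM in siNT, 0.528, 0.713 and 0.708 in siNT_E2, 3.04, 3.83 and 3.05 in siER_E2, 8.15, 5.88 and 5.8 in siFOXA1_E2 and 6.17, 4.38 and 4.48 in siMDC1_E2. In MM330 KCNJ13 was at 0.946, 1.1 and 1.63 CPM in siNT, 0.0679, 0.284 and 0.106 in siNT_E2, 0.479, 1.07 and 0.634 in siER_E2, 3.5, 2.15 and 2.63 in siFOXA1_E2 and 0.117, 0.0359 and 0.169 in siMDC1_E2. In HCC1428 KCNJ13 was at 13.7, 12.2 and 13.0 CPM in siNT, 1.99, 1.23 and 1.75 in siNT_E2, 17.0, 14.2 and 14.2 in siER_E2, 26.2, 28.2 and 28.8 in siFOXA1_E2 and 3.11, 3.7 and 3.1 in siMDC1_E2. In MM134 and HCC1428 every siNT_E2 library lay below every library of the other 4 groups, and in MM330 siNT_E2 and siMDC1_E2 overlapped. The E2 response was -3.28 (SE 0.20, adjusted p = 7.0e-12) in MM134, -2.96 (SE 0.51, adjusted p = 2.9e-04) in MM330 and -2.92 (SE 0.13, adjusted p = 3.7e-13) in HCC1428. ER depletion raised KCNJ13 by 2.38 ± 0.21, 2.23 ± 0.52 and 3.13 ± 0.13, and FOXA1 depletion by 3.37 ± 0.20, 4.15 ± 0.51 and 3.99 ± 0.12 (log2, SE). MDC1 depletion raised it in MM134 (2.95 ± 0.21) and HCC1428 (0.96 ± 0.14) and gave -0.47 ± 0.64 in MM330, not called. The MDC1 response in MM134 exceeded that in HCC1428 by 1.98 (SE 0.33, adjusted p = 1.3e-05). Without siNT_E2 replicate 2 of MM330 the E2 value was -3.72, the ER value 2.99 and the FOXA1 value 4.91. Over 24.3% of its exon bases KCNJ13 is overlapped by GIGYF2 on the other strand. GIGYF2 averaged 148 CPM in siNT and 138 CPM in siNT_E2 of MM134, and 196 CPM in siNT, 167 CPM in siNT_E2 and 214 CPM in siFOXA1_E2 of HCC1428. GIGYF2 levels in MM330, in siFOXA1_E2 of MM134 and with depletion of ER or MDC1 are not given here. The listed levels therefore do not show whether GIGYF2 moved with KCNJ13 across the groups. The part of GIGYF2 reads in the KCNJ13 values was not tested.

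KCNJ11 fell with FOXA1 depletion in all 3 lines. It averaged 56.2 CPM in siNT_E2 and 36.6 CPM in siFOXA1_E2 of MM134, 24.3 and 11.6 CPM in MM330, and 24.3 and 14.1 CPM in HCC1428. The log2 fold changes were -0.61 (SE 0.04, adjusted p = 2.7e-11), -1.07 (SE 0.06, adjusted p = 5.5e-10) and -0.81 (SE 0.07, adjusted p = 2.3e-08). ABCC8, the sulfonylurea receptor that pairs with KCNJ11, fell with it, by 1.48, 2.47 and 1.33 on the log2 scale in MM134, MM330 and HCC1428. The G-protein-gated members were split between lines. KCNJ3 in HCC1428 was at 4.64, 6.4 and 5.35 CPM in siNT, 2.71, 2.34 and 2.19 in siNT_E2, 6.99, 5.99 and 6.01 in siER_E2, 0.848, 0.611 and 1.28 in siFOXA1_E2 and 2.26, 2.46 and 2.41 in siMDC1_E2. It fell with E2, -1.16 (SE 0.18, adjusted p = 2.0e-05), rose with ER depletion, 1.36 ± 0.18, and fell with FOXA1 depletion, -1.44 ± 0.21, where its libraries were the lowest of the 15. KCNJ6 in MM134 was at 3.59, 2.95 and 3.8 CPM in siNT, 6.28, 8.82 and 8.97 in siNT_E2, 4.85, 5.43 and 4.94 in siER_E2, 9.11, 8.19 and 8.23 in siFOXA1_E2 and 3.66, 3.84 and 5.03 in siMDC1_E2. It rose with E2, 1.21 (SE 0.15, adjusted p = 4.6e-07), and fell with depletion of ER (-0.63 ± 0.14) and MDC1 (-0.95 ± 0.15). KCNJ14 moved in opposite directions with E2, 0.55 (SE 0.11, adjusted p = 3.2e-04) in MM134 and -0.47 (SE 0.12, adjusted p = 0.0035) in HCC1428, and the difference was 1.04 (SE 0.25, adjusted p = 0.0010). On the same strand AC008403.1 and GRWD1 overlap 10.9% of the exon bases of KCNJ14, and AC008403.2, at 0 in every group, overlaps 16.5% on the other. GRWD1 averaged 47.9 CPM in siNT and 85.1 CPM in siNT_E2 of MM134, and 84.1 and 91.1 CPM in HCC1428. AC008403.1 averaged 36.2 and 27.1 CPM in MM134, and 68.3 and 49.3 CPM in HCC1428. GRWD1 thus moved in the direction of KCNJ14 in MM134 only, and AC008403.1 in HCC1428 only. Their part in the KCNJ14 values was not tested.

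Of the two-pore-domain genes, E2 called 4 of 6 tested in MM134 (all higher), 2 of 6 in MM330 (both higher) and 8 of 9 in HCC1428 (6 higher, 2 lower), beside 54.4, 26.3 and 54.8% of all genes tested. KCNK5 (chr6:39188973-39229450, minus strand) rose with E2 in all 3 lines. KCNK5 in MM330 was at 4.2, 3.4 and 4.77 CPM in siNT, 27.0, 31.8 and 30.6 in siNT_E2, 2.4, 2.87 and 2.35 in siER_E2, 65.7, 78.5 and 86.3 in siFOXA1_E2 and 16.6, 13.2 and 14.1 in siMDC1_E2. In HCC1428 KCNK5 was at 127, 119 and 116 CPM in siNT, 275, 288 and 291 in siNT_E2, 113, 119 and 132 in siER_E2, 223, 234 and 219.8 in siFOXA1_E2 and 243, 228 and 244 in siMDC1_E2. In MM134 KCNK5 was at 7.61, 8.14 and 8.57 CPM in siNT, 16.5, 15.9 and 16.0 in siNT_E2, 9.56, 8.73 and 8.42 in siER_E2, 16.2, 15.4 and 16.2 in siFOXA1_E2 and 8.64, 7.64 and 8.78 in siMDC1_E2. In each line all siNT_E2 libraries lay above all siNT and siER_E2 libraries, and in MM330 the siFOXA1_E2 libraries were higher still. The E2 response was 0.98 (SE 0.08, adjusted p = 3.6e-10), 2.89 (SE 0.12, adjusted p = 1.2e-11) and 1.25 (SE 0.05, adjusted p = 2.6e-13) in MM134, MM330 and HCC1428. ER depletion lowered KCNK5, with log2 fold changes of -0.83 ± 0.08, -3.55 ± 0.13 and -1.26 ± 0.05, and so did MDC1 depletion, with -0.96 ± 0.08, -1.03 ± 0.10 and -0.26 ± 0.05 (± SE). FOXA1 depletion raised it in MM330, with 1.36 (SE 0.10, adjusted p = 4.9e-09), lowered it in HCC1428, with -0.37 (SE 0.05, adjusted p = 6.6e-06), and gave -0.01 ± 0.07 in MM134, not called. Against HCC1428 the MM330 responses differed by 1.64 (SE 0.13, adjusted p = 1.3e-13) for E2, -2.32 (SE 0.14, adjusted p = 8.0e-17) for ER depletion and 1.71 (SE 0.10, adjusted p = 5.8e-17) for FOXA1 depletion.

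KCNK6, a weak leak channel partly held inside the cell, rose with E2 in MM134 and HCC1428. KCNK6 in MM134 was at 25.7, 24.2 and 22.4 CPM in siNT, 74.2, 73.8 and 77.6 in siNT_E2, 32.1, 33.2 and 34.3 in siER_E2, 39.5, 41.4 and 46.3 in siFOXA1_E2 and 36.2, 39.7 and 38.5 in siMDC1_E2. In HCC1428 KCNK6 was at 29.1, 29.6 and 25.6 CPM in siNT, 135, 136 and 132 in siNT_E2, 37.8, 35.5 and 41.9 in siER_E2, 138, 139 and 143 in siFOXA1_E2 and 80.4, 79.7 and 79.8 in siMDC1_E2. In MM330 KCNK6 was at 1.17, 1.08 and 0.938 CPM in siNT, 1.19, 1.49 and 1.17 in siNT_E2, 1.33, 1.0 and 1.21 in siER_E2, 4.3, 6.24 and 6.84 in siFOXA1_E2 and 1.24, 1.44 and 1.25 in siMDC1_E2. The siNT_E2 libraries were the highest of MM134, siNT_E2 and siFOXA1_E2 together were the highest of HCC1428, and in MM330 siFOXA1_E2 alone stood above the rest. The E2 response was 1.63 (SE 0.06, adjusted p = 2.5e-16) in MM134 and 2.27 (SE 0.06, adjusted p = 1.1e-16) in HCC1428, and 0.29 ± 0.22 in MM330, not called. Against HCC1428, the MM330 response differed by -1.99 (SE 0.23, adjusted p = 2.1e-09). With FOXA1 depletion KCNK6 fell in MM134 (-0.82 ± 0.05), rose in MM330 (2.17 ± 0.21) and gave 0.03 ± 0.05 in HCC1428, not called. MDC1 depletion lowered it, with log2 fold changes of -0.99 ± 0.05 in MM134 and -0.75 ± 0.05 in HCC1428.

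KCNK12 rose with FOXA1 depletion in all 3 lines. KCNK12 in MM330 was at 1.21, 1.08 and 0.734 CPM in siNT, 0.917, 0.993 and 0.958 in siNT_E2, 1.51, 1.35 and 0.761 in siER_E2, 17.6, 20.7 and 20.6 in siFOXA1_E2 and 0.972, 1.11 and 0.78 in siMDC1_E2. In HCC1428 KCNK12 was at 86.3, 82.6 and 76.8 CPM in siNT, 185, 193 and 183 in siNT_E2, 112, 112 and 110.3 in siER_E2, 309, 306 and 298 in siFOXA1_E2 and 126, 129 and 132 in siMDC1_E2. In MM134 it was at 1.48, 1.36 and 1.64 CPM in siNT_E2 and 3.88, 4.16 and 4.07 CPM in siFOXA1_E2. The siFOXA1_E2 libraries were the highest in every line and overlapped no other group there. The log2 fold changes were 1.44 (SE 0.19, adjusted p = 8.1e-07), 4.35 (SE 0.22, adjusted p = 1.3e-10) and 0.67 (SE 0.04, adjusted p = 5.0e-11) in MM134, MM330 and HCC1428. The MM330 response exceeded that of HCC1428 by 3.66 (SE 0.14, adjusted p = 3.3e-22). In HCC1428 alone of the 3 lines, KCNK12 was called with E2 (1.21 ± 0.04), ER depletion (-0.78 ± 0.04) and MDC1 depletion (-0.54 ± 0.04).

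KCNK3, an acid-sensitive leak channel, also rose with FOXA1 depletion where it was expressed. KCNK3 in MM134 was at 1.56, 0.887 and 1.49 CPM in siNT, 2.11, 2.24 and 1.9 in siNT_E2, 1.69, 2.05 and 1.86 in siER_E2 and 7.1, 5.79 and 7.17 in siFOXA1_E2. In HCC1428 KCNK3 was at 0.832, 1.77 and 1.73 CPM in siNT, 0.963, 1.54 and 1.14 in siNT_E2, 4.57, 5.17 and 3.61 in siER_E2, 4.76, 3.63 and 5.4 in siFOXA1_E2 and 0.308, 0.796 and 0.841 in siMDC1_E2. It had no count in MM330. The FOXA1 response was 1.69 (SE 0.18, adjusted p = 3.5e-08) in MM134 and 1.90 (SE 0.30, adjusted p = 2.4e-05) in HCC1428, and ER depletion raised it in HCC1428 by 1.85 ± 0.30. KCNK15, a relative of KCNK3 that gives no current alone in expression studies, rose with E2 in MM134, 2.03 (SE 0.17, adjusted p = 6.5e-10). Its libraries there were at 2.37, 1.41 and 1.85 CPM in siNT, 7.87, 7.97 and 7.11 in siNT_E2, 2.92, 2.64 and 2.26 in siER_E2, 3.74, 4.77 and 4.39 in siFOXA1_E2 and 5.43, 6.58 and 5.19 in siMDC1_E2, and siNT_E2 overlapped no other group. The KCNK15 call with MDC1 depletion in MM134 (-0.43 ± 0.15) was lost without siMDC1_E2 replicate 1 or 3 or siNT_E2 replicate 1 or 2 (adjusted p up to 0.099). On the other strand KCNK15-AS1 and RIMS4 together overlap 21.7% of the exon bases of KCNK15. In MM134, RIMS4 was also highest in siNT_E2, with a mean of 10.4 CPM against 1.59 CPM in siNT, and it averaged 2.23, 3.65 and 4.19 CPM with depletion of ER, FOXA1 and MDC1, while KCNK15-AS1 averaged 0.0816 CPM in siNT and 0.268 CPM in siNT_E2. The part of RIMS4 reads in the KCNK15 values was not tested.

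KCNK2 in HCC1428 was at 9.57, 9.46 and 10.8 CPM in siNT, 5.08, 4.63 and 5.38 in siNT_E2, 8.54, 8.24 and 7.32 in siER_E2, 6.12, 7.29 and 6.8 in siFOXA1_E2 and 8.86, 8.21 and 9.32 in siMDC1_E2. It fell with E2, -0.96 (SE 0.10, adjusted p = 1.5e-07), and rose with depletion of ER (0.64 ± 0.10), FOXA1 (0.38 ± 0.10) and MDC1 (0.79 ± 0.10). KCNK1, a widely expressed leak channel, had group means of 20.9 to 24.4 CPM in MM134, 22.8 to 33.8 in MM330 and 44.8 to 63.8 in HCC1428. With E2 it was called higher in MM330 (0.25 ± 0.08) and lower in HCC1428 (-0.13 ± 0.04). The MM330 call was lost without siNT replicate 2 or 3 or siNT_E2 replicate 3, and the HCC1428 call without siNT replicate 1, at adjusted p up to 0.20 and 0.061. KCNK9, another acid-sensitive leak channel, is described through siNT_E2 of HCC1428 alone, so its differences from that group are given without a test. It averaged 1.24 CPM there and 0.592 CPM in siNT.

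Whether a response differed between lines was tested directly, as the lobular line's log2 fold change minus that of HCC1428, over all 45 libraries. For E2 this called 16 of 44 members (6 higher, 10 lower), against 26.5% of all genes tested (12.2% higher, 14.3% lower), in MM134. In MM330 the E2 response differed in 13 of 44 members (6 higher, 7 lower), against 28.3% of all genes tested (11.8% higher, 16.5% lower). For ER depletion it called 14 of 44 members (8 higher, 6 lower), against 24.5% of all genes tested (12.4% higher, 12.1% lower), in MM134. In MM330 it called 15 of 44 members (7 higher, 8 lower), against 25.3% of all genes tested (13.0% higher, 12.3% lower). That last count was 8 without siER_E2 replicate 1 of MM330, and 7 in the libraries with fewer pseudogene counts. KCNMA1 fell more with E2 in MM134 than in HCC1428, with a difference of -0.85 (SE 0.09, adjusted p = 3.2e-10).

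For FOXA1 depletion the MM134 response differed in 14 of 44 members (9 higher, 5 lower), against 30.5% of all genes tested (16.8% higher, 13.7% lower). In MM330 the difference was called in 15 of 44 members (11 higher, 4 lower), against 22.2% of all genes tested (11.8% higher, 10.4% lower). KCNN4 rose more in MM330 than in HCC1428, by 4.86 (SE 0.44, adjusted p = 1.8e-11), or 5.54 without siNT_E2 replicate 2 of MM330. The KCNK6 response differed from that of HCC1428 by -0.89 (SE 0.09, adjusted p = 1.6e-10) in MM134 and by 2.14 (SE 0.16, adjusted p = 7.3e-14) in MM330. For MDC1 depletion the MM134 response differed in 7 of 44 members (4 higher, 3 lower), against 18.6% of all genes tested (10.9% higher, 7.69% lower). In MM330 it differed in 5 of 44 members (3 higher, 2 lower), against 13.8% of all genes tested (7.48% higher, 6.28% lower). That count was 3 without siNT_E2 replicate 1 of MM330.

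Other genes that move potassium were counted from 3 lists. The shares of all genes tested that were called in MM134, MM330 and HCC1428 stand beside these counts as 54.4, 26.3 and 54.8% for E2, 57.2, 32.5 and 51.2% for ER depletion, 56.3, 49.0 and 53.6% for FOXA1 depletion, and 50.3, 20.8 and 29.1% for MDC1 depletion. Of 16 sodium-potassium and proton-potassium pump genes, 7, 7 and 9 were tested in MM134, MM330 and HCC1428. Higher and lower calls with E2 were 2 and 4 in MM134, 3 and 0 in MM330, and 3 and 4 in HCC1428. With ER depletion the pumps gave 4 and 2 in MM134, 0 and 4 in MM330, and 4 and 2 in HCC1428, with FOXA1 depletion 5 and 1 in MM134, 2 and 1 in MM330, and 3 and 2 in HCC1428, and with MDC1 depletion 3 and 2 in MM134, 0 and 3 in MM330, and 2 and 0 in HCC1428. FXYD3, a pump regulator, fell with E2 by 1.40 in MM134 and 1.22 in HCC1428 on the log2 scale. Of 15 cotransporter and kinase genes, 13, 14 and 14 were tested, with higher and lower calls with E2 of 5 and 4 in MM134, 3 and 3 in MM330, and 5 and 5 in HCC1428. ER depletion gave 6 and 5 in MM134, 3 and 6 in MM330, and 7 and 5 in HCC1428, FOXA1 depletion 0 and 8 in MM134, 4 and 7 in MM330, and 3 and 7 in HCC1428, and MDC1 depletion 3 and 6 in MM134, 0 and 5 in MM330, and 2 and 2 in HCC1428. SLC12A2, the sodium-potassium-chloride cotransporter of secretory epithelia, fell with E2 by 1.56, 1.57 and 1.72 in MM134, MM330 and HCC1428, and rose with ER depletion by 1.11, 1.19 and 1.41. Of 20 channel partners and other potassium-permeable channels, 14, 12 and 13 were tested, with higher and lower calls with E2 of 3 and 2 in MM134, 4 and 1 in MM330, and 7 and 2 in HCC1428. ER depletion gave 7 and 4 in MM134, 2 and 2 in MM330, and 4 and 5 in HCC1428, FOXA1 depletion 5 and 6 in MM134, 2 and 7 in MM330, and 3 and 7 in HCC1428, and MDC1 depletion 6 and 5 in MM134, 4 and 1 in MM330, and 3 and 4 in HCC1428. SGK1, a kinase that acts on channel trafficking, rose with E2 by 2.06 in MM134 and 3.09 in MM330, and fell with ER depletion by 2.34 and 3.21.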

How the data were processed

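The authors deposited unnormalised read counts by gene symbol for 45 libraries of polyadenylated RNA, made with a stranded kit and sequenced as 150-base pairs, per the labels. The submitters' processing notes name STAR 2.6.0a, limma and GRCh38 (hg38). How reads were assigned to genes (tool, annotation, strand) is not given in the sources used here. Depth was 21.0 to 36.7 M counts per library, and counts include any amplification copies.

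Levels were CPM from TMM-scaled totals over 45 libraries. Tests used edgeR 4.0.16 in R 4.3.3 (filterByExpr, TMM, glmQLFit and glmQLFTest, Benjamini-Hochberg), on the 15 libraries of a line for its 4 comparisons and on all 45 for comparisons between lines. Each SE given with a log2 fold change was derived from the test. It is the size of the log2 fold change divided by the square root of the F statistic. On simulated counts every recovered change had the right sign. Libraries of a group were compared for duplicates and none was found. Groups came from the labels, and all columns had a sample.

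Alternatives were RLE scaling, no filter, DESeq2 1.42.0, limma-voom 3.58.1, the compared libraries only, the replicate block, other levels of CPM and leaving out each library. A fit without the libraries with a higher share of processed pseudogene counts was added after seeing the data. Genes were named by rule: in each comparison the 3 highest and 3 lowest called members with at least 1 CPM and no overlap between groups, the 10 highest per kb, members limited to one line, members called in opposite directions, members called in all 4 comparisons of a line with at least 2-fold changes, and those at the threshold. Other members were named after their values were seen. The members, the potassium-handling and marker lists and the rules were chosen with earlier results of these data known. Of the 44 described members 4 are in the counts and sums but are not reported by name.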

Additional observations from a re-analysis of the deposited data

Results flagged for a closer look

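The results below had called responses of opposite sign in a lobular line and in HCC1428, and the difference between the lines passed edgeR's quasi-likelihood test after Benjamini-Hochberg adjustment. Values are log2 fold changes, and 3 libraries stand behind each group. With E2, KCNK1 gave 0.25 in MM330 and -0.13 in HCC1428, a difference of 0.376 (SE 0.10, adjusted p = 0.0033). KCNJ14 gave 0.55 in MM134 and -0.47 in HCC1428, a difference of 1.04 (SE 0.25, adjusted p = 0.0010) for the same treatment. AC008403.1 and GRWD1 overlap 10.9% of the exon bases of KCNJ14 on its strand, and their part in its values here and with ER depletion was not tested. The KCNK1 call in MM330 was lost without siNT replicate 2 or 3 or siNT_E2 replicate 3 and that in HCC1428 without siNT replicate 1.

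With ER depletion, KCNJ11 gave 0.10 in MM134 and -0.19 in HCC1428, a difference of 0.23 (SE 0.08, adjusted p = 0.025). In the other lobular line KCNJ11 gave 0.26 in MM330 and -0.19 in HCC1428, a difference of 0.419 (SE 0.08, adjusted p = 7.8e-05). KCNJ14 gave -0.60 in MM134 and 0.59 in HCC1428, a difference of -1.25 (SE 0.25, adjusted p = 1.1e-04). KCNH2 gave 0.13 in MM134 and -0.63 in HCC1428, a difference of 0.716 (SE 0.20, adjusted p = 0.0064). KCNAB2 gave 0.26 in MM134 and -0.33 in HCC1428, a difference of 0.54 (SE 0.14, adjusted p = 0.0032). The KCNJ11 call in HCC1428 reached an adjusted p of 0.38 among the alternatives, and that in MM134 reached 0.20. The KCNAB2 call in HCC1428 reached 0.12.

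With FOXA1 depletion, KCNK5 gave 1.36 in MM330 and -0.37 in HCC1428, a difference of 1.71 (SE 0.10, adjusted p = 5.8e-17). KCNH2 gave 0.87 in MM134 and -1.18 in HCC1428, a difference of 2.02 (SE 0.21, adjusted p = 2.9e-10). KCNG1 gave 2.04 in MM330 and -0.38 in HCC1428, a difference of 2.39 (SE 0.43, adjusted p = 4.7e-05). KCNC4 gave 2.04 in MM330 and -0.28 in HCC1428, a difference of 2.29 (SE 0.31, adjusted p = 2.8e-07). KCNQ5 gave -1.40 in MM330 and 1.10 in HCC1428, a difference of -2.5 (SE 0.54, adjusted p = 4.9e-04). KCNG1 in MM330 averaged 0.174 CPM in siNT_E2, and its call there was lost without siNT_E2 replicate 3 (adjusted p = 0.051). The KCNC4 call in HCC1428 reached an adjusted p of 0.28 among the alternatives, and the KCNQ5 call in MM330 reached 0.11.

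With MDC1 depletion, KCNS3 gave 0.29 in MM134 and -0.26 in HCC1428, a difference of 0.554 (SE 0.12, adjusted p = 6.4e-04).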

How the results depend on the processing

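Under the alternatives run (RLE scaling, no filter on low counts, DESeq2, limma-voom, the compared libraries only, the replicate block, the libraries with fewer pseudogene counts, and each library left out), the counts of called members stayed within 1.5 times in all 12 comparisons within lines and in the 3 comparisons of siNT levels. No called member changed sign. Of 230 calls within lines 54 were lost under some alternative, and of 99 calls between lines 36 were lost. For ER knockdown, MM330 minus HCC1428, the count of 15 became 7 in the libraries with fewer pseudogene counts, and ran from 8 to 14 as single libraries were left out. For MDC1 knockdown, MM330 minus HCC1428, the count of 5 became 2 in those libraries and ran from 3 to 5. For MDC1 knockdown, MM134 minus HCC1428, the count of 7 became 11 by DESeq2. The library subsets hold fewer samples, and no other cause was tested. The number of described genes stayed within 1.5 times under other scalings of CPM and under levels of 0.5 and 2 CPM. The labels do not say that replicate numbers pair samples. In 6 of 32 same-numbered pairs the correlation of deviations from the group means was over 0.1. Among them were both pairs of the E2 response in HCC1428 (0.47 and 0.43), where 2 pairs are too few to establish a pairing. Other pairs were well below 0, such as replicates 1 and 2 of the E2 response in MM330 (-0.47 and -0.46). In each of those HCC1428 pairs both libraries had the higher, or both the lower, share of processed pseudogene counts. In each of those MM330 pairs the libraries differed in that share. All E2 pairs of MM134 had the lower share, with correlations of 0.02, 0.01 and 0.01. The part of the pseudogene share in these correlations was not tested. With the replicate block, 24 members were called for E2 response in MM134, 5 for E2 response in MM330 and 19 for FOXA1 knockdown in MM330, within 1.5 times of the unblocked counts as in every comparison run. Among named results the block ended 5 calls, those of KCNK1 (E2, MM330), KCNJ11, KCNH2 and KCNAB2 (ER depletion, HCC1428) and KCNC4 (FOXA1 depletion, HCC1428). Genes with under 1 CPM in both groups rest on few counts, so their values carry the widest spread.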
